A study of Mus musculus with 4 samples.

Results

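The genes described here are 30 genes of cholesterol synthesis and sterol handling, taken by symbol out of the 27040 genes that all 4 libraries list. They comprise 7 genes of the mevalonate arm, 11 of the arm from squalene to cholesterol, 5 that sense sterols and regulate the pathway, and 7 that transport, export or store cholesterol. The set was chosen by measured values of these same libraries: the choice named the level of Idi1 in muscle satellite cells at day 21 and the export genes of macrophages as contrasts, so those values are given as a description and support nothing. Cells came from mouse Achilles tendon, with 5 tendons pooled into each of 4 single-cell libraries and 1 library per group. Prox1 eGFP day 0 is labelled as untreated, and the design text calls uninjured tendon the control, although the protocol field of this library also reads B/T. Prox1 eGFP day 7, Prox1 eGFP day 21 and Vegfc CRE day 7 carry the treatment label B/T, which the labels do not spell out. The series title speaks of Vegfc lineage tracing, and the labels give neither strain, age, the driver of the reporter nor any Cre induction. The protocol states a sort for the Prox1-expressing population while each library is also labelled unsorted, so the shares of cell types below reflect a selection that the labels do not settle.

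How do cells make and keep cholesterol? The mevalonate arm joins acetyl-CoA units into isoprenoid diphosphates, which feed sterols, dolichol, ubiquinone and protein prenylation. Farnesyl diphosphate is then condensed to squalene, closed to lanosterol and trimmed to cholesterol. When sterol in the endoplasmic reticulum is low, SCAP carries SREBP2 to the Golgi, where it is cleaved and then switches on the synthesis genes; INSIG proteins hold the complex back when sterol is plentiful. Surplus cholesterol activates LXR, which raises the pumps ABCA1 and ABCG1 and the lipoprotein APOE, and macrophages that clear debris lean on this route. Satellite cells are the Pax7-positive stem cells of skeletal muscle.

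Promoters show 1 feature that the choice of genes did not use. RefSeq (GRCm38.p6) promoters, 250 bases before to 50 after a start, were matched by symbol for 24 of the 30 genes and searched on both strands for the CCAAT box, which binds NF-Y, a partner of SREBP, and for the sterol regulatory element TCACNCCAC; neither motif contains the other. A CCAAT box was found in 14 of 15 matched synthesis enzymes (93.3%), 4 of 5 sensing genes and 2 of 4 transport genes, against 41.1% of 27025 genes. TCACNCCAC was found in Hmgcs1 alone among the 24, against 1.44% of all genes. Shown here are the 250 bases upstream of the start of Idi1, Hmgcs1 and Insig1. These synthesis and feedback genes were higher at day 21 in each muscle progenitor cluster compared below. Msmo1 was too, and its matched promoter, not printed, held 3 CCAAT boxes. Capitals mark CCAAT, its reverse complement ATTGG, or TCACNCCAC; a match describes these letters only.
Idi1, plus strand, chr13:8885356-8885605: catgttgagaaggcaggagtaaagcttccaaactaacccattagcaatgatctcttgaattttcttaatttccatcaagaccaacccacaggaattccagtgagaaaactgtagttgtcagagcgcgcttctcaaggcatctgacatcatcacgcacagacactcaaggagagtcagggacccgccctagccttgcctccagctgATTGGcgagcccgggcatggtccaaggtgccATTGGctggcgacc
Hmgcs1, plus strand, chr13:119690101-119690350: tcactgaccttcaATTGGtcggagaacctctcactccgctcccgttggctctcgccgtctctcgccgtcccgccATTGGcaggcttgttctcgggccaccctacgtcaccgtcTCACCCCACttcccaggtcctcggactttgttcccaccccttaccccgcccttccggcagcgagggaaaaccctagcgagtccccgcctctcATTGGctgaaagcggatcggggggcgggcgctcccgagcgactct
Insig1, plus strand, chr5:28071162-28071411: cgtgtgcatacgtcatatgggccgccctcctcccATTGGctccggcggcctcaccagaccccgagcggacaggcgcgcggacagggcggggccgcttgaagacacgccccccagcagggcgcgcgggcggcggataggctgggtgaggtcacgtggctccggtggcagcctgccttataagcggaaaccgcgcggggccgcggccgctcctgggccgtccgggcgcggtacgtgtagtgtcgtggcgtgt
The printed bases of Idi1 held 2 CCAAT boxes close to the start. Those of Hmgcs1 held 3 and the sterol regulatory element, and those of Insig1 held 1. The full searched window of Hmgcs1 held 4 CCAAT boxes.

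The libraries held 717 barcodes and 6761289 unique molecular identifiers (UMIs) at day 0, 5051 and 59312181 at day 7, 6704 and 59894792 at day 21, and 8711 and 92568978 in Vegfc CRE day 7. Of the 21183 barcodes, 18843 cells were kept and grouped into 27 clusters without using the 84 pathway genes; classes were then named from marker genes. Pairs of libraries shared 2 to 10 barcodes, at most 0.4348% of the smaller library. Muscle progenitor-like cells, in clusters that all had Myf5, Myod1 and Cdh15 among their markers (Pax7 too, except in cluster 15, led by Myog), numbered 3642 at day 7, 3396 at day 21, 31 in Vegfc CRE day 7 and 1 at day 0. At day 0, only T/NK-like (400), B/plasma-like (111) and dendritic-like (54) cells reached 30 cells, and no tenocyte-like cell was found although the tissue is labelled as tendon. Day 0 therefore enters no comparison of muscle, endothelial or stromal cells. Levels are given as CPM, the UMIs of a gene per 1000000 UMIs summed over the group, each with an exact Poisson 95% interval, and ratios carry an exact conditional 95% interval; both cover counting error only, and PCR copies were already collapsed by the UMIs. With 1 library per group no difference could be tested against replicate spread, and each "higher" or "lower" below compares 2 pools of cells, not 2 conditions.

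Which cells held the synthesis enzymes? Summed over the 18 enzymes of both arms, the level was highest in Schwann-like cells of Vegfc CRE day 7, at 1122 CPM (1018 to 1234), and lowest in neutrophil-like cells of the same library, at 144.8 CPM (131.8 to 158.7). Epithelial-like cells of that library followed Schwann-like cells with 957.4 CPM (917.4 to 998.6). In muscle progenitor-like cells the sum was 577.5 CPM (569.1 to 586.0) at day 7 and reached 773.9 CPM (762.8 to 785.1) in those of day 21, above every other class with at least 30 cells in those 2 libraries. Mature muscle-like cells, which carry contractile genes such as Acta1 and Ckm, held 152.7 and 156.6 CPM in the same 2 libraries. Counted gene by gene, muscle progenitor-like cells had the highest level of 14 of the 30 members among the 4 classes of day 7 and of 11 among the 8 of day 21, against 26.8% and 12.2% of all genes with at least 10 UMIs there. The interval did not overlap that of the next class for 12 and 8 of them, against 13.9% and 5.20% of all genes. Idi1, which the choice of genes named, is in each of these counts. In Vegfc CRE day 7, Schwann-like cells led for 11 members and epithelial-like cells for 9 among 11 classes, against 16.3% and 9.63% of all genes. Their intervals stood apart for 1 and 2 of these, against 2.83% and 3.24% of all genes. That library held 60 Schwann-like and 108 epithelial-like cells, which limits the precision.

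**Figure D1:**
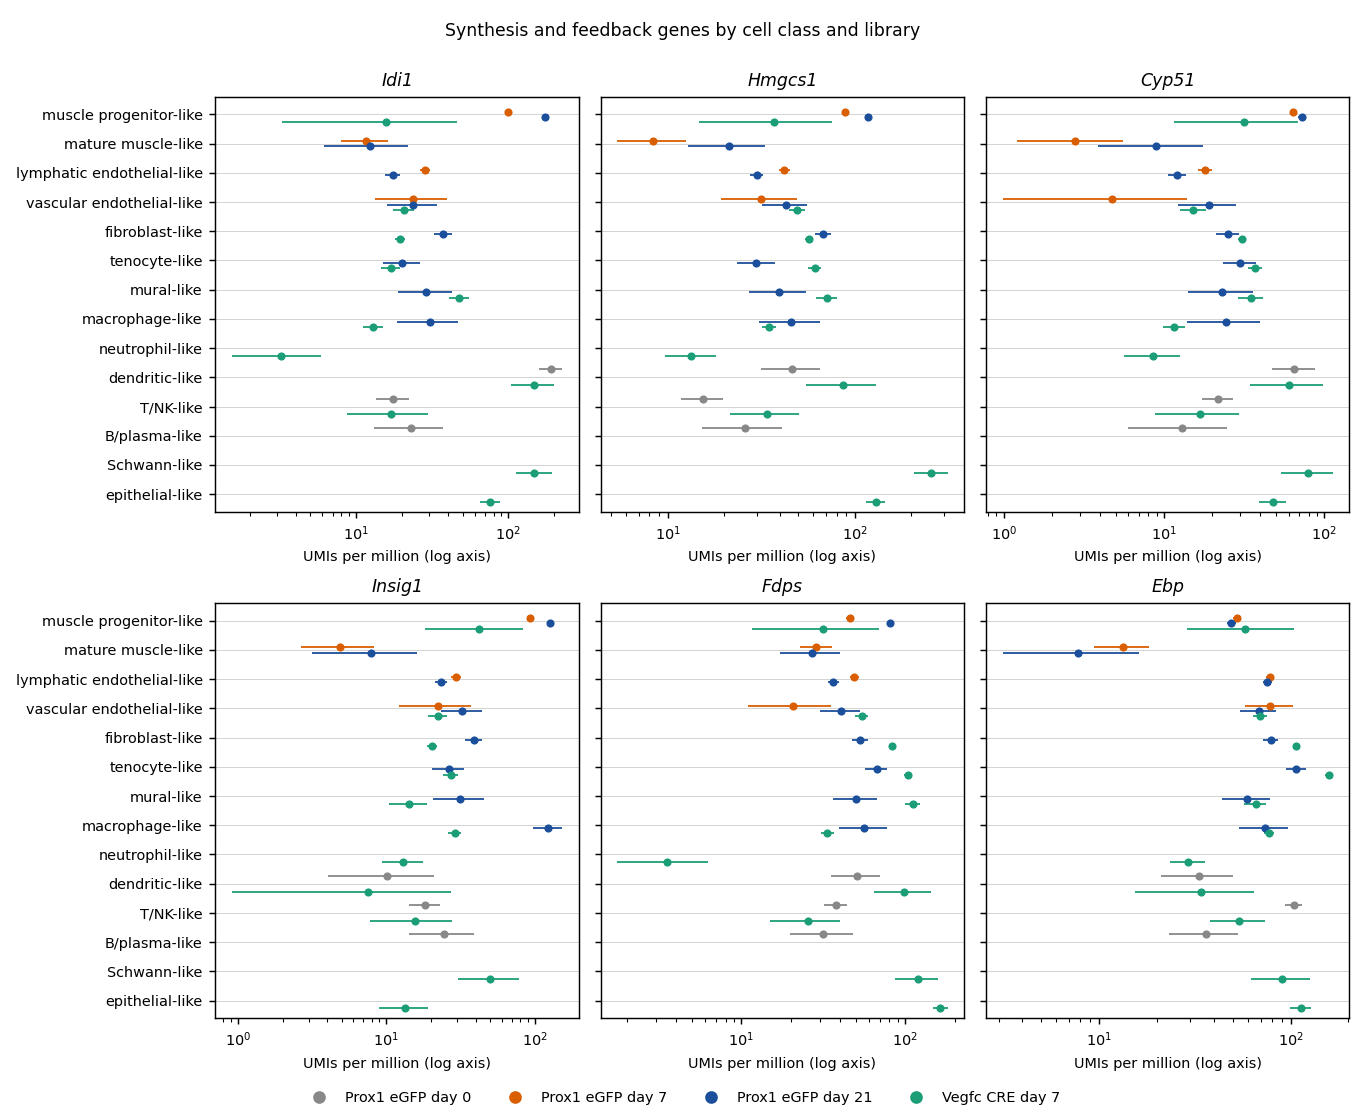
Levels of the enzymes Idi1, Hmgcs1, Cyp51, Fdps and Ebp and of the feedback gene Insig1 by cell class, in CPM on a log axis, with 1 point per library and bars for the 95% Poisson interval. For Idi1 the muscle progenitor-like cells of day 21 sit at 173.5 CPM and those of day 7 at 99.2, while lymphatic endothelial-like cells lie between 17.4 and 28.4.

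Idi1 (ENSMUSG00000058258, mm10 chr13:8885501-8892451, plus strand) encodes the isomerase that balances the isoprenoid building blocks. Over whole libraries it stood at 35.5 CPM at day 0, 65.3 at day 7, 89.6 at day 21 and 21.8 in Vegfc CRE day 7. Muscle progenitor-like cells gave 99.2 CPM (95.8 to 102.8) at day 7, against 173.5 (168.3 to 178.8) at day 21; the 31 such cells of Vegfc CRE day 7 gave 3 UMIs, or 15.8 CPM (3.25 to 46.1). Muscle was not the only high class. Dendritic-like cells held 190.8 CPM at day 0 and 147 in Vegfc CRE day 7, and Schwann-like cells held 148.2, near the muscle progenitor-like level of day 21. Mature muscle-like cells, at 11.6 and 12.3 CPM, lay near the T/NK-like cells (17.4 and 16.9).

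Ebp, Fdps and Hmgcs1 had the most UMIs of the synthesis enzymes over all 4 libraries (16370, 12801 and 12788). Hmgcs1 (ENSMUSG00000093930, chr13:119690379-119708260, plus strand), the cytosolic HMG-CoA synthase, stood at 19.8, 64.9, 73.8 and 52.8 CPM over the whole libraries of day 0, day 7, day 21 and Vegfc CRE day 7. By class it was highest in Schwann-like cells (256.7 CPM), followed by epithelial-like cells (129.5) and muscle progenitor-like cells of day 21 (117.1). Fdps (ENSMUSG00000059743, chr3:89093588-89101959, minus strand), which makes farnesyl diphosphate, stood at 36.6, 45.8, 60.8 and 73.3 CPM in the same order of libraries. It was highest in epithelial-like cells (163.6 CPM); Fdps overlaps Gm43738, a gene that only 1 version of the feature list holds, so its counts may not be counted alike in the day 7 library. Ebp, the sterol isomerase, was the most even of these enzymes, at 76.7, 61.9, 64.8 and 97.9 CPM over whole libraries. Tenocyte-like cells of Vegfc CRE day 7 held 159 CPM of Ebp and T/NK-like cells of day 0 held 103.7, both above the 49.2 CPM of muscle progenitor-like cells at day 21. The Ebp order of cell classes thus differed from that of Idi1.

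Did muscle progenitor-like cells differ between day 7 and day 21? The day 7 matrix lists 27998 genes and that of day 21 lists 32285, so day and gene list cannot be told apart in these ratios. By the counting interval, 7 of the 18 synthesis enzymes and the feedback gene Insig1 were higher at day 21, each by less than 2-fold, and 3 enzymes were lower, while Apoe, Abcg1 and Tm7sf2 were at least 2-fold lower. No member was at least 2-fold higher and 3 of 30 were at least 2-fold lower; of all 13971 genes with at least 10 UMIs, 3.54% were at least 2-fold higher and 11.7% lower. Over all members, the interval was above 1 for 8 of 30 and below 1 for 9, against 14.3% and 47.1% of all genes. The 8 include Idi1, whose day 21 level the choice of genes drew on. The members' median log2 ratio was -0.03 (median bounds -0.16 to 0.10) beside -0.26 for all genes. Scaling by TMM shifts each log2 ratio of this comparison by 0.24; the members' median then turned to 0.21, with 17 higher and 5 lower by the interval (28.5% and 27.4% of all genes), and that of all genes came to -0.02. Under TMM the 2-fold calls also turned: 3 members, Idi1, Fdps and Msmo1, were at least 2-fold higher and none lower, against 4.86% and 7.81% of all genes. The direction of the members as a group and the 2-fold calls thus hang on the scaling. With the mean over cells, or with each cell thinned to 2000 UMIs, 1 member was at least 2-fold apart in place of 3.

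In the mevalonate arm, Idi1 was 1.75-fold higher at day 21 (1.67 to 1.83) and Fdps, at 46.1 and 81.2 CPM, was 1.76-fold higher (1.65 to 1.89). Fdps overlaps Gm43738, which only 1 version of the feature list holds, so Fdps may not be counted alike on both days. Hmgcs1 went from 88.4 to 117.1 CPM, 1.33-fold higher (1.26 to 1.40). The intermediate kinases and the thiolase did not share this: Mvk, mevalonate kinase, was 1.16-fold lower, and the intervals of Acat2 (the thiolase), Pmvk (phosphomevalonate kinase) and Mvd (the decarboxylase) included 1. Scaled by TMM, Mvk lay above 0 instead of below. The arm's sum went from 285.2 to 421.5 CPM, most of it from Idi1.

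In the squalene arm, Msmo1 (ENSMUSG00000031604, chr8:64718139-64733792, minus strand), which oxidises sterol methyl groups, had the largest ratio of any member that was higher: 49.5 CPM at day 7 and 95.8 at day 21, 1.93-fold (1.81 to 2.06). Squalene epoxidase (Sqle) was 1.29-fold higher, squalene synthase (Fdft1) 1.19-fold and the lanosterol demethylase Cyp51 1.13-fold, each with an interval above 1. Lss, which closes the sterol rings, was 1.33-fold lower (1.05 to 1.68; 114 UMIs at day 21 and 197 at day 7). Tm7sf2, a sterol reductase, was 2.36-fold lower (1.5 to 3.83) on 26 and 80 UMIs, and it overlaps Vps51, so its reads are uncertain. For Nsdhl and Hsd17b7, which act in removing methyl groups, and for Ebp, Sc5d and Dhcr7, which finish the sterol, the intervals included 1.

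Among the sensing genes, Insig1 (ENSMUSG00000045294, chr5:28071363-28078662, plus strand), itself an SREBP target, held 92.3 CPM at day 7 and 126.4 at day 21, 1.37-fold higher (1.30 to 1.44), and 42.1 in the few cells of Vegfc CRE day 7. Over whole libraries Insig1 stood at 17.5, 62.4, 71.9 and 23.0 CPM from day 0 to Vegfc CRE day 7. Insig2, its relative, was higher in muscle progenitor-like cells than in any other class of both libraries but did not differ between the days, at 167.4 and 170.8 CPM. Srebf2, which encodes the SREBP2 precursor, was at 51.5 and 55.4 CPM, with an interval that included 1; its whole-library levels were 35.8, 36.2, 36.5 and 25.8 CPM. Srebf1, which drives fatty acid genes more, was 1.31-fold lower and Scap, the escort protein, 1.54-fold lower (1.30 to 1.83).

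In the transport group, Apoe (ENSMUSG00000002985, chr7:19696109-19699188, minus strand), the lipoprotein component, went from 2310 to 1153 CPM, 2.0-fold lower (1.98 to 2.03). Abcg1, an export pump, was 2.03-fold lower (1.19 to 3.59) on 53 and 20 UMIs. Npc1, which moves cholesterol out of lysosomes, was 1.46-fold lower and Soat1, which esterifies it for storage, 1.24-fold lower. Abca1, the other pump, at 13.6 and 14.0 CPM, Npc2, the partner of Npc1, and Stard4, a cytosolic sterol carrier, had intervals that included 1.

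**Figure D2:**
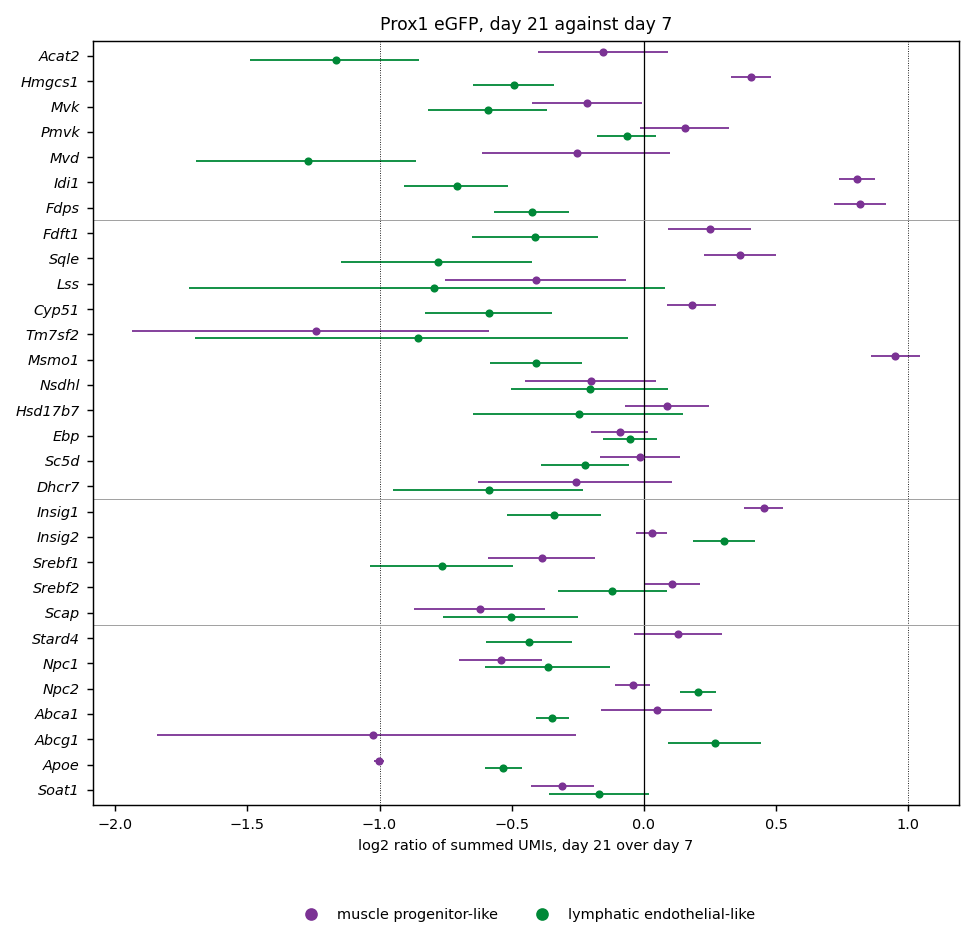
Log2 ratio of day 21 over day 7 for the 30 members in muscle progenitor-like (purple) and lymphatic endothelial-like (green) cells, with 95% counting intervals and dotted lines at 2-fold. Idi1, Fdps and Msmo1 lie to the right of 0 in muscle (0.81, 0.82 and 0.95) and to the left in lymphatic cells (-0.71, -0.42 and -0.41).

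Different clusters held most of these cells on the 2 days: cluster 1 had 2442 cells at day 7 and 334 at day 21, and cluster 0, led by the stress genes Dnajb1, Hspb1, Atf3 and Egr1 beside Myf5, had 696 and 2216. The ratio was therefore also taken within each of the 4 clusters with at least 30 cells on both days (0, 1, 7 and 15, the last led by the differentiation gene Myog). Idi1 went from 103.6 to 201.2 CPM in cluster 0 and from 112.8 to 149.6 in cluster 1. It went from 75.3 to 131.4 in cluster 7 and from 24.9 to 56.4 in cluster 15. Day 21 was the higher day in each of the 4, with log2 ratios between 0.41 and 1.18. Hmgcs1 (0.23 to 0.97), Fdps (0.57 to 1.09), Msmo1 (0.63 to 1.92) and Insig1 (0.33 to 1.21) were likewise higher in 4 of 4 clusters, and Msmo1 differed most in cluster 15, at 17.6 and 66.6 CPM, 3.78-fold (2.75 to 5.24). Apoe was lower in 4 of 4 clusters (-2.98 to -0.78), from 963.3 to 121.9 CPM in cluster 15. Of the 29 members with at least 10 UMIs in each cluster, 5 were higher in all 4 and 1 lower. Among 10427 genes, 3.11% were higher and 7.48% lower in all 4. The 5 include Idi1, whose day 21 level the choice of genes drew on. Cyp51 was higher in 3 of the 4 clusters and Sqle in 2.

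**Figure D3:**
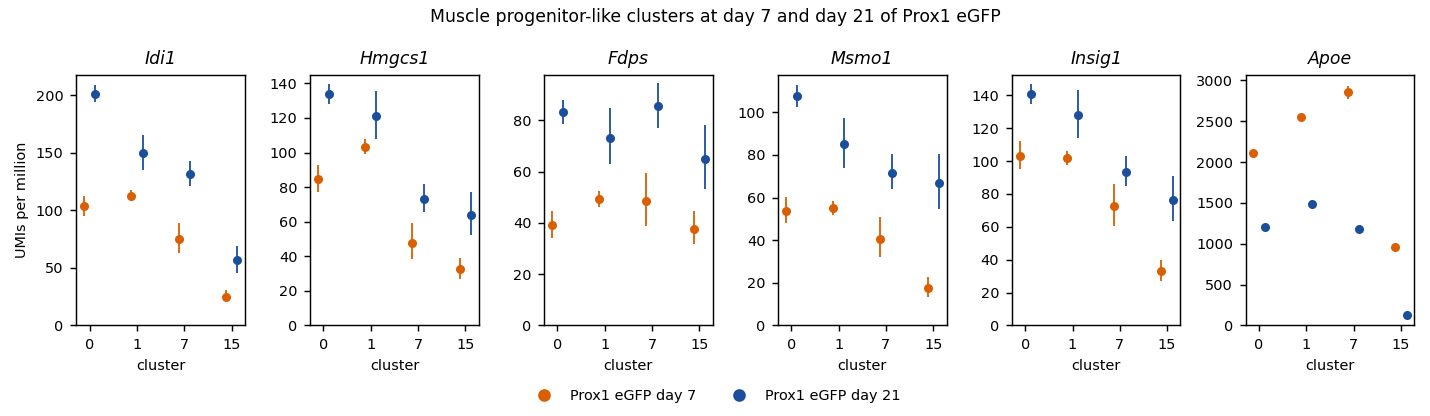
CPM of Idi1, Hmgcs1, Fdps, Msmo1, Insig1 and Apoe in muscle progenitor-like clusters 0, 1, 7 and 15 at day 7 (orange) and day 21 (blue), with 95% Poisson intervals. The day 21 point is the higher one in each cluster for the first 5 genes and the lower one for Apoe, which stands at 121.9 CPM in cluster 15.

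Genes of early response and heat shock, which tissue digestion can raise, summed to 30043 CPM at day 7 and 31787 at day 21 in muscle progenitor-like cells (12 of 12 genes detected on both days). Within cluster 0 that sum was 29292 and 36054 CPM; within clusters 1, 7 and 15 it differed less (33904 and 35119, 20380 and 20946, 14163 and 14883). Median depth was 7735 UMIs per cell at day 7 and 6598 at day 21. Lymphatic markers summed to 1461 and 975 CPM in these cells (9 of 9 genes on both days) and fibroblast markers to 844 and 604 CPM (Pdgfra at 0 at day 21). Macrophage markers summed to 10.0 CPM at day 7 (7 of 10 genes, with Adgre1, Folr2 and Fcgr1 at 0) and 15.7 at day 21 (10 of 10). Mature muscle-like cells of the same libraries held Apoe at 50.1 and 66.0 CPM. The part of these values in the ratios, and of RNA from other cells in the Apoe level, was not tested.

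How did lymphatic endothelial-like cells compare over the same days? The differing gene lists of the libraries limit these ratios too. Here the synthesis enzymes were lower at day 21: the interval lay below 1 for 13 of the 18 enzymes and above 1 for none, and the enzymes' sum went from 442.3 to 348.4 CPM. Of the 30 members, 0 were at least 2-fold higher and 2 lower, beside 3.81% and 7.78% of 13697 genes. By the interval 3 were higher and 20 lower, beside 16.0% and 39.2% of all genes. The members' median log2 ratio was -0.42 (-0.60 to -0.20) and that of all genes -0.17; TMM shifts the ratios by 0.14, to -0.27 for the members, and leaves 17 lower and 3 higher by the interval, against 25.7% and 25.9% of all genes under that scaling.

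Mvd was 2.41-fold lower (1.82 to 3.23; 192 UMIs at day 7 and 67 at day 21) and Acat2 2.24-fold lower (1.80 to 2.81). Tm7sf2 was 1.81-fold lower, Sqle 1.72-fold lower (1.34 to 2.21) and Lss 1.73-fold lower, the last with an interval that included 1. Idi1 went from 28.4 to 17.4 CPM, 1.63-fold lower (1.43 to 1.87), Hmgcs1 from 42.0 to 29.9 and Fdps from 48.9 to 36.4. Ebp and Pmvk, the enzymes with the highest counts in these cells, were alike on both days, at 78.4 and 75.7 CPM and at 65.7 and 62.8 CPM, and their intervals included 1. Insig1 was lower (29.6 to 23.4 CPM) and Insig2 higher (52.6 to 64.9 CPM), so the 2 feedback genes differed in direction. Abca1 was lower (227 to 179 CPM) while Abcg1 (24.2 to 29.2) and Npc2 (157 to 181) were slightly higher. With each cell thinned to 2000 UMIs the Abcg1 log2 ratio came to -0.00538, and 1 member in place of 2 was at least 2-fold apart.

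The lymphatic class also differed in other respects between the days. Its 8 division genes summed to 864 CPM at day 7 and 297 at day 21, and its median depth was 18889 and 8719 UMIs per cell. In the dividing cluster 19 (101 and 45 cells), Idi1 stood at 40.5 and 46.1 CPM with an interval of the ratio that included 1, whereas it was lower at day 21 in the other lymphatic clusters 2 (28.8 to 19.4) and 4 (21.3 to 12.1). Hmgcs1 and Msmo1 were lower at day 21 in all 3 clusters. With cluster 19 left out, the members' median and the number at least 2-fold apart stayed near the reported values. The part of depth and of division in these ratios was not tested further.

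Put side by side, 8 members had an interval above 1 in muscle and below 1 in lymphatic cells (Hmgcs1, Idi1, Fdps, Fdft1, Sqle, Cyp51, Msmo1 and Insig1), and Abcg1 had the reverse. Among 12685 genes measured in both classes, 3.69% showed the first pattern and 4.27% the second. Idi1, among the 8, was named by the choice of genes. Dividing cells did not enter the 2 classes alike. Dividing cluster 19 stayed in the lymphatic class, whereas cluster 18 (17 cells at day 7, 108 at day 21) was left unnamed. Cluster 18 was led by the osteoclast genes Acp5, Mmp9 and Atp6v0d2, followed by division genes such as Top2a. It passed 4 of 7 osteoclast markers and 2 muscle progenitor markers. At resolution 2.0 a dividing cluster with 17 and 107 cells of these libraries was named muscle progenitor. Both ratios come from the same pair of libraries, and the difference between the classes was not tested.

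Within the day 21 library, where library and digestion are shared, what set the muscle cells apart from the lymphatic cells? By the interval, muscle progenitor-like cells held more of 10 of the 18 synthesis enzymes and less of 2, and more of 4 of the 5 sensing genes and less of Scap (1.31-fold lower, 1.07 to 1.60). Lymphatic cells held more of both export pumps. At least 2-fold higher in muscle were 13 of 30 members and lower were 3. Over 13952 genes these shares were 16.4% and 27.7%. The 13 include Idi1, whose level here the choice of genes drew on. By the interval 17 were higher and 7 lower, against 27.9% and 50.9% of all genes. The median log2 ratio was 0.68 (0.41 to 0.96) for the members and -0.31 for all genes, and TMM, which shifts this comparison by 0.31, gave 0.99 for the members, with 21 higher and 5 lower by the interval against 38.8% and 38.7% of all genes. Of the 18 enzymes 9 were at least 2-fold higher and 1, Pmvk, lower (2.81-fold, 2.53 to 3.11).

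Idi1 was 9.99-fold higher in muscle (8.92 to 11.2), a value that the choice of genes drew on. The other enzymes give a graded picture: Sqle was 7.10-fold higher (5.76 to 8.84), Cyp51 6.01-fold, Lss 5.19-fold, Hsd17b7 4.99-fold, Msmo1 3.96-fold, Hmgcs1 3.92-fold, Fdps 2.23-fold and Fdft1 2.11-fold. Insig1 was 5.40-fold higher (4.88 to 5.98), Srebf2 3.0-fold and Insig2 2.63-fold. In contrast, Mvk, Mvd, Tm7sf2, Nsdhl, Sc5d and Dhcr7 had intervals that included 1, and Ebp was 1.54-fold lower in muscle. On the export side, Abcg1 was 35.1-fold lower in muscle (22.5 to 58; 20 and 544 UMIs) and Abca1 12.7-fold lower (11.4 to 14.3; 14.0 and 179 CPM), whereas Apoe was 8.07-fold higher (7.75 to 8.40). Early response and heat shock genes summed to 31787 CPM in the muscle and 5866 in the lymphatic cells of this library; the part of this difference was not tested.

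**Figure D4:**
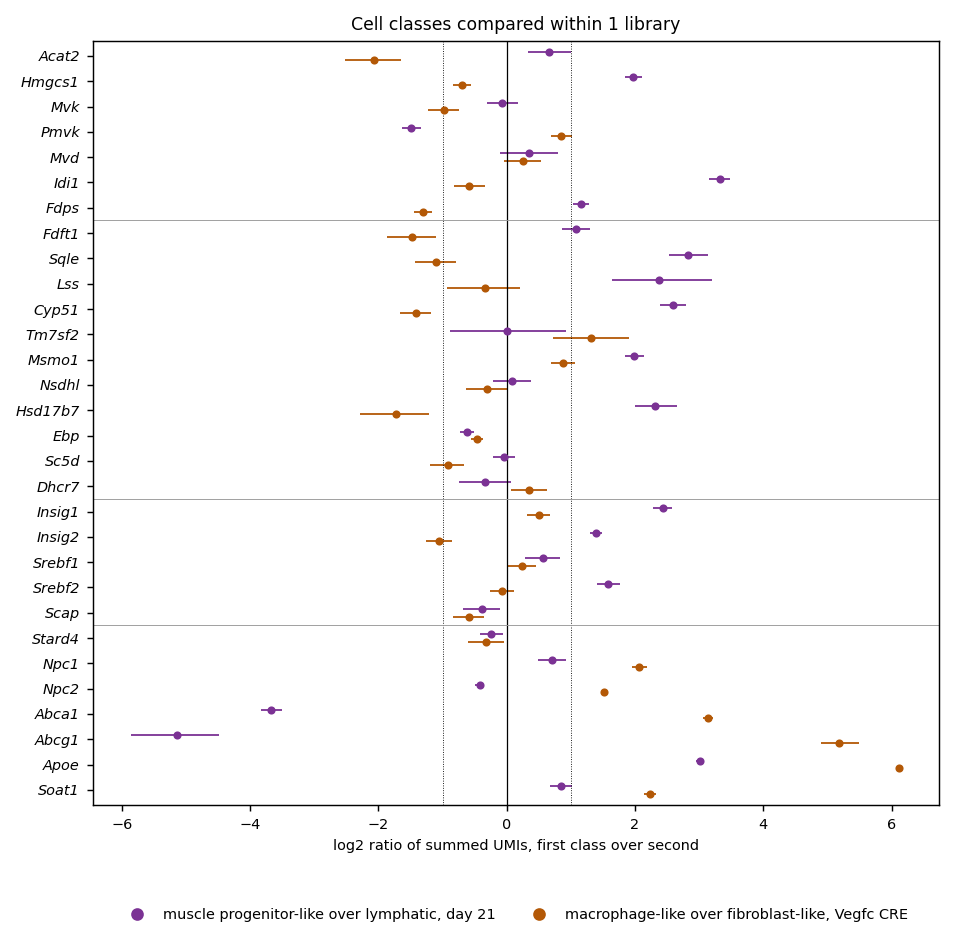
Log2 ratio of each member between 2 classes of the same library: muscle progenitor-like over lymphatic endothelial-like cells at day 21 (purple) and macrophage-like over fibroblast-like cells in Vegfc CRE day 7 (orange), with 95% counting intervals. Enzymes such as Sqle (2.83) and Cyp51 (2.59) lie right of 0 for muscle and Cyp51 (-1.42) left of 0 for macrophages, while Abcg1 lies at -5.13 for muscle and 5.19 for macrophages.

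Export and transport genes of macrophage-like cells were the second contrast named by the choice of genes. Over whole libraries Apoe stood at 1252 CPM at day 0, 1429 at day 7, 885 at day 21 and 4058 in Vegfc CRE day 7. Its level in macrophage-like cells was 21598 CPM in Vegfc CRE day 7 and 15828 at day 21; the next classes were epithelial-like (2943) and Schwann-like cells (2869) of Vegfc CRE day 7 and muscle progenitor-like cells of day 7 (2310). Abca1 stood at 16.5, 97.9, 79.1 and 130 CPM over whole libraries. By class it was 453 CPM in macrophage-like cells of Vegfc CRE day 7 and 384 at day 21, then 240 in vascular endothelial-like cells of Vegfc CRE day 7 and 227 in lymphatic endothelial-like cells of day 7. Abcg1, at 47.6, 11.4, 13.4 and 31.7 CPM over whole libraries, reached 124 CPM in dendritic-like cells of day 0 and 106 in macrophage-like cells of Vegfc CRE day 7. Npc2, at 394, 156, 240 and 648 CPM over whole libraries, reached 1461 CPM in macrophage-like cells and 1135 in dendritic-like cells of Vegfc CRE day 7. These 4 genes were not ordered alike: dendritic-like cells of Vegfc CRE day 7 held no UMI of Abca1, and muscle progenitor-like cells paired a high Apoe with low levels of both pumps.

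**Figure D5:**
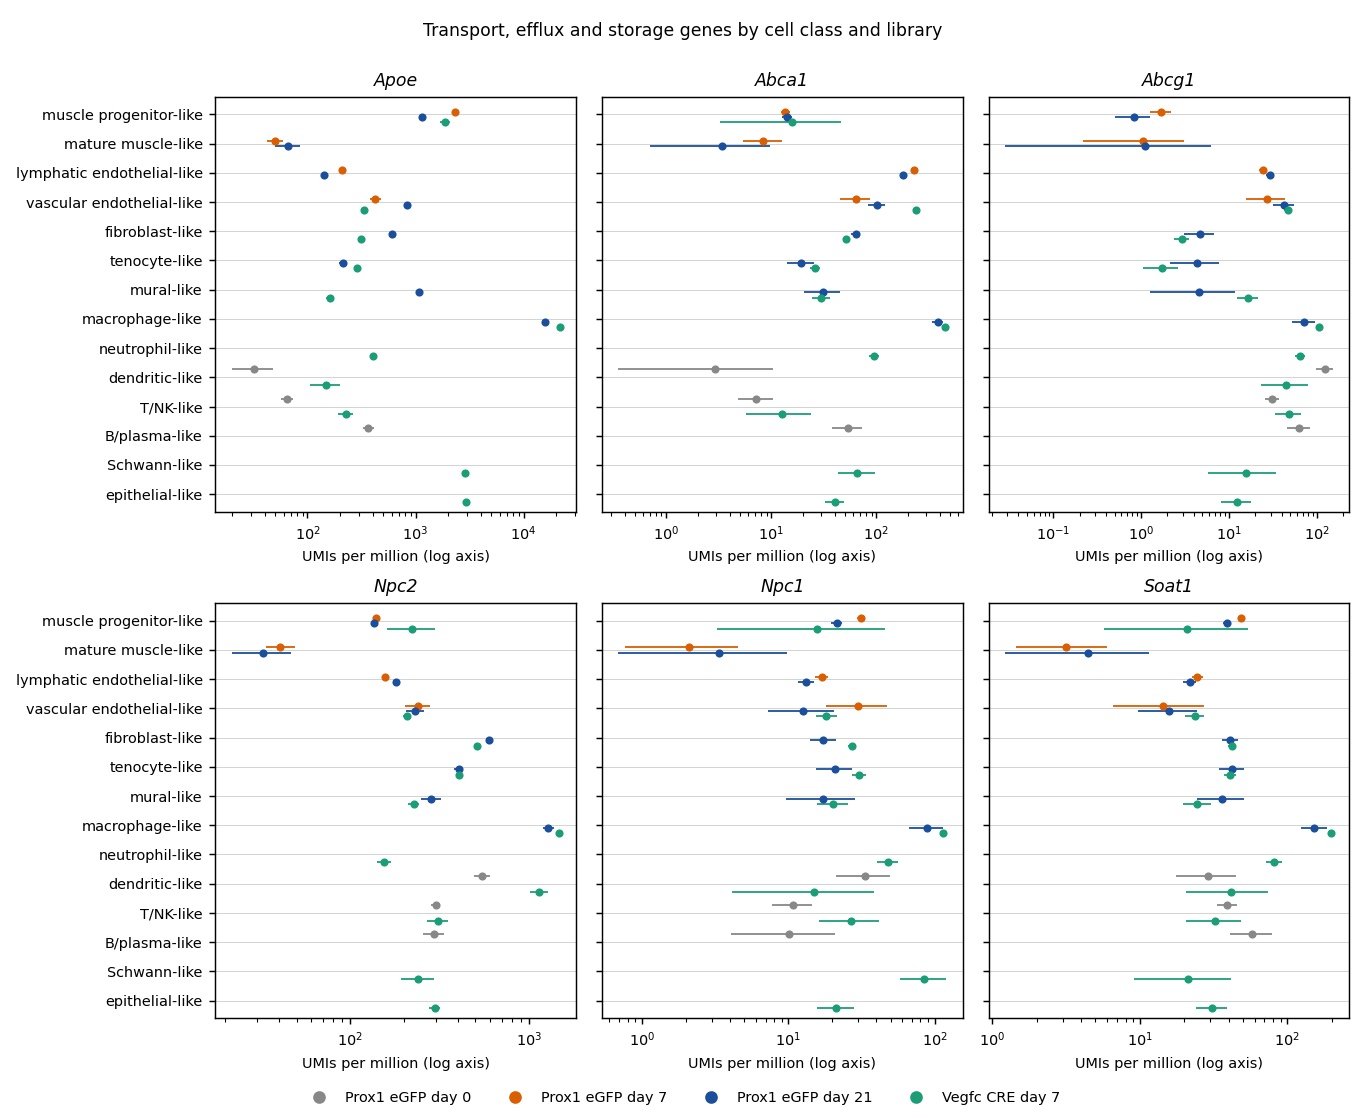
Levels of Apoe, Abca1, Abcg1, Npc2, Npc1 and Soat1 by cell class, in CPM on a log axis, with 1 point per library and 95% Poisson intervals. Macrophage-like cells of Vegfc CRE day 7 top the panels of Apoe (21598), Abca1 (453) and Npc2 (1461), while Abcg1 is as high in dendritic-like cells of day 0 (124).

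Within Vegfc CRE day 7, macrophage-like cells (1387) were set against fibroblast-like cells (1424). The choice of genes drew on the export genes of macrophages, so the transport counts are a description and support nothing. Of the 7 transport genes 6 were at least 2-fold higher in macrophages and 0 lower. Of the 18 enzymes 1 was higher and 6 were lower, a share of lower genes close to the 31.4% of all genes. Over all 30 members this made 7 higher and 7 lower, beside 17.9% and 31.4% of 14947 genes. By the interval 12 members were higher and 14 lower, against 32.1% and 46.6% of all genes. The members' median log2 ratio was -0.31 (-0.58 to 0.06), close to the -0.27 of all genes; the median was 2.23 for transport genes and -0.64 for enzymes. Scaling by TMM shifts these ratios by 0.13 and gave 8 members higher and 5 lower at 2-fold, against 19.7% and 29.4% of all genes. With clusters drawn at resolution 0.5 the members' median was 0.28, with Fdps (0.17) and Idi1 (0.39) higher in macrophages instead of lower. The classes held partly different cells there: 2296 macrophage-like and 752 fibroblast-like cells, with a cluster of 1154 cells led by Cxcl5 left unnamed.

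Apoe was 69.0-fold higher in macrophages (67.7 to 70.3), Abcg1 36.4-fold (29.8 to 45.0), Abca1 8.78-fold (8.33 to 9.25), Soat1 4.68-fold (4.39 to 4.99), Npc1 4.19-fold and Npc2 2.85-fold. Stard4, the remaining transport gene, was 1.25-fold lower. Of the enzymes, Acat2 was 4.20-fold lower in macrophages (3.12 to 5.77), Hsd17b7 3.32-fold (2.33 to 4.89), Fdft1 2.78-fold, Cyp51 2.67-fold, Fdps 2.47-fold and Sqle 2.16-fold. By the interval, 11 of the 18 enzymes were lower in macrophages and 4 higher: Pmvk (1.80-fold), Msmo1 (1.84-fold), Dhcr7, the reductase of the last step (1.27-fold; 11.3 and 8.9 CPM), and Tm7sf2 (2.48-fold, 1.64 to 3.75, on 49 and 51 UMIs). Insig2 was 2.07-fold lower and Insig1 1.41-fold higher, and the interval of Srebf2 included 1.

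Both classes were mixtures. Macrophage cluster 13, led by Ccl8, Cd209f, F13a1 and Folr2, held more Apoe than cluster 5, led by Pf4, Trem2 and Ms4a7 (30545 and 19457 CPM, 1.57-fold), and more Abca1 (562 and 427 CPM, 1.32-fold), but less Abcg1 (81.6 and 111.9), Npc2 (1202 and 1523) and Soat1 (150 and 208). Idi1 was 1.77-fold higher in cluster 13 than in cluster 5 (1.26 to 2.46). Fibroblast cluster 9, led by the inflammatory genes Cxcl5, Saa3 and Ptx3, held more Fdps (111.5 and 38.8 CPM, 2.88-fold) and Cyp51 (40.5 and 16.3 CPM, 2.48-fold) than cluster 6, led by Clec3b and Pi16. Cluster 6 held more Apoe (597 and 125 CPM, 4.77-fold) and Abca1 (84.6 and 29.8 CPM, 2.84-fold). A class-level ratio thus depends on how many cells each cluster gives. A further cluster of 980 cells, 862 of them in Vegfc CRE day 7, carried macrophage markers but was led by antigen presentation genes such as H2-Ab1 and Cd74 and was left unnamed.

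The remaining comparisons set a class at Prox1 eGFP day 21 against the same class in Vegfc CRE day 7; these libraries differ in their line label and in day, which cannot be told apart. In macrophage-like cells (56 and 1387), 7 of 30 members were at least 2-fold higher at day 21 and 1 lower, beside 18.4% and 6.55% of 11901 genes. The interval lay above 1 for 9 and below 1 for 5, against 16.2% and 7.18% of all genes. Insig1 was 4.28-fold higher (3.32 to 5.44; 123.3 and 28.8 CPM) and Sc5d, a sterol desaturase, 3.08-fold (1.85 to 4.90). Idi1 was 2.34-fold higher (1.40 to 3.73) and Fdft1, Sqle and Cyp51 2.42-, 2.36- and 2.11-fold, on 8 to 20 UMIs each at day 21. Hsd17b7 and Scap passed 2-fold on 4 and 3 UMIs with intervals that included 1 (2.45-fold higher, 0.632 to 6.88, and 2.81-fold lower, 0.947 to 13.8). In contrast, the interval lay below 1 for 5 of the 7 transport genes and above 1 for none: Apoe was 1.36-fold lower, Abcg1 1.48-fold, Abca1 1.18-fold, Soat1 1.29-fold and Npc2 1.14-fold. After thinning to 2000 UMIs per cell the log2 ratios of Abca1 (0.088) and Abcg1 (0.22) lay above 0 instead, and Abca1 did so with the mean over cells (0.22). The median log2 ratio was 0.35 (-0.54 to 1.13) for the members and 0.17 for all genes, and the TMM shift of -0.20 left 0.15 for the members. Under that scaling the interval lay above 1 for 6 members and below 1 for 7, against 11.3% and 12.8% of all genes, so the balance of the members turned.

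Muscle progenitor, lymphatic and fibroblast markers stood higher in the macrophage-like cells of day 21. Muscle progenitor markers summed to 146 CPM in them and to 3.80 in those of Vegfc CRE day 7 (8 of 8 genes in both), lymphatic markers to 1193 and 92.4 CPM (9 of 9, and 6 of 9 with Mmrn1, Reln and Tbx1 at 0), and fibroblast markers to 839 and 355 CPM (8 of 10 with Pdgfra and Clec3b at 0, and 10 of 10). Early response and heat shock genes summed to 10487 and 5914 CPM. Cluster 13 made up 34 of the 56 cells at day 21 and 336 of the 1387 in Vegfc CRE day 7. The part of these differences in the ratios was not tested.

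Fibroblast-like cells (309 and 1424) showed 0 members at least 2-fold higher at day 21 and 2 lower, beside 8.24% and 10.0% of 14597 genes. The interval lay above 1 for 9 and below 1 for 10, against 25.2% and 22.9% of all genes. Idi1 (37.3 and 19.5 CPM, 1.92-fold), Insig1 (38.9 and 20.4 CPM, 1.91-fold) and Apoe (606 and 313 CPM, 1.94-fold) were higher at day 21. Lss was 2.34-fold lower (1.15 to 5.55, on 8 and 115 UMIs), Mvd 2.03-fold lower (1.36 to 3.15) and Stard4 1.95-fold lower. The median was -0.04 (-0.49 to 0.30) beside 0.01 for all genes. The number of members at least 2-fold apart was 7 after thinning and 4 at a clustering resolution of 2.0. At resolution 0.5 Fdps came out higher at day 21 (log2 0.46) and Abca1 (-0.35), Abcg1 (-0.43) and Npc2 (-0.15) lower, the reverse of their reported directions. The class then held 292 cells at day 21 and 752 in Vegfc CRE day 7, and a Cxcl5-led cluster (116 and 1154 cells) was unnamed. In the main clustering, cluster 6 held 289 of the 309 cells at day 21, whereas Vegfc CRE day 7 had 739 in cluster 6 and 685 in cluster 9. Early response and heat shock genes summed to 4550 and 2628 CPM and division genes to 132 and 427 CPM, and the part of these was not tested.

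Vascular endothelial-like cells (121 and 677) had 1 of 29 measured members at least 2-fold higher and 5 lower, beside 9.69% and 8.80% of 12229 genes. The interval lay above 1 for 4 and below 1 for 8, against 20.2% and 12.2% of all genes. Apoe was 2.46-fold higher at day 21 (2.29 to 2.64) and Abca1 2.38-fold lower (1.99 to 2.88; 101 and 240 CPM). Mvk (2.55-fold), Nsdhl (2.49-fold), Mvd (2.36-fold) and Sqle (2.33-fold) were lower on 6 to 12 UMIs each at day 21, and Insig2 was 1.92-fold higher. Clusters 10 and 17 held 65 and 56 of these cells at day 21, and 502 and 175 in Vegfc CRE day 7. Mvd (log2 0.81) and Insig1 (-0.15) changed direction after thinning. Fibroblast markers summed to 1824 CPM at day 21 and 461 in Vegfc CRE day 7, lymphatic markers to 1326 and 42.9, and division genes to 8.7 and 398; their part was not tested. The median was -0.20 (-0.94 to 0.33) for the members and 0.06 for all genes, with a TMM shift of -0.12.

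Stard4 was highest in vascular endothelial-like cells of Vegfc CRE day 7 (68.8 CPM) and was the 1 transport gene whose top class was endothelial in all 3 treated libraries. Pmvk was highest in dendritic-like cells of Vegfc CRE day 7 (203.6 CPM), above the 62.8 CPM of lymphatic endothelial-like cells at day 21. At day 0, of 29 members with at least 10 UMIs, the 54 dendritic-like cells had the highest level of 13, T/NK-like cells of 9 and B/plasma-like cells of 7, against 35.8%, 39.4% and 24.8% of all genes. Intervals stood apart for 6, 1 and 2 of these, against 10.8%, 9.11% and 4.24% of all genes.

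The other genes of the pathway were counted from wider lists: 12 found of 13 further isoprenoid and sterol enzymes, 10 of sterol sensing, 21 of uptake, transport and turnover, and 11 of fatty acid synthesis. In muscle progenitor-like cells, day 21 over day 7, none of 11 measured enzymes and none of 10 sensing genes passed 2-fold in either direction; 1 transport gene of 19 was higher and 5 were lower, and 1 fatty acid gene of 11 was higher (all genes: 3.54% higher, 11.7% lower). In lymphatic cells the counts were 0 of 11, 0 of 10, 1 higher and 1 lower of 20, and 1 higher and 1 lower of 11 (all genes: 3.81% and 7.78%). In macrophage-like over fibroblast-like cells of Vegfc CRE day 7, 13 of 21 transport genes were higher and 2 lower, and 7 of 11 fatty acid genes were lower with none higher, beside 17.9% of all genes higher and 31.4% lower. Named by size, the scavenger receptor Msr1 (193 and 1.3 CPM) and the fatty acid carrier Cd36 (384.5 and 3.1 CPM) were higher in macrophages, as was Nr1h3, which encodes an LXR (49.9 and 3.5 CPM). The desaturase Fads2 and malic enzyme Me1 were lower (log2 -4.87 and -4.07). In muscle over lymphatic cells of day 21, 5 transport genes of 20 were higher and 10 lower, and 4 fatty acid genes of 11 were higher and 3 lower (all genes: 16.4% and 27.7%). Scd1, a fatty acid desaturase (44.6 and 1.9 CPM), and the receptor Lrp1 (64.3 and 2.1 CPM) were higher in muscle, and Ch25h, which makes an oxysterol, was lower (log2 -5.47).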

How the data were processed

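The authors deposited filtered gene by cell UMI count matrices of 4 libraries made with a 10x Genomics Single Cell 3' v3 kit; per the submitters' processing notes they used Cell Ranger 5.0.1 and mm10. The day 7 Prox1 eGFP matrix lists 27998 genes and the others 32285, so the 27040 shared gene identifiers were used, which hold 99.0 to 99.8% of the UMIs. A shared identifier need not have been counted alike under both lists. Cells with at least 500 genes, 1000 UMIs and at most 15% mitochondrial UMIs were kept. Doublets called by Scrublet were removed (0, 1, 85 and 92 cells); the caller did not work at day 7, so removing the highest scores was an added alternative.

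Scanpy 1.11.5 clustered log counts scaled per cell to 10000 (2000 variable genes, 30 components, 15 neighbours, Leiden resolution 1.0) on all libraries together, without the 84 pathway genes and without batch integration. A class needed at least 3 of its markers 2-fold above the other cells and detected in 20% or more of the cluster. It also needed a runner-up class with at most 80% of its markers, and no lead of another class in its top 10 genes. Cluster 18, with osteoclast and division genes among its leading genes, was left unnamed by a further rule on division genes. The runner-up, top-gene and division rules were set after the clusters were seen. They left clusters 25, 8 and 18 unnamed, and cluster 8 held 12.4% of the Vegfc CRE day 7 cells. The unnamed clusters held 9.57%, 0.534%, 2.55% and 13.8% of the cells from day 0 to Vegfc CRE day 7. UMIs were summed per class and library. A ratio needed 30 cells on both sides and 10 UMIs over both; the floor for a count of 0 is 3 counts. TMM factors came from edgeR 4.0.16 in R 4.3.3. The ratio step was run on simulated Poisson counts, which cannot show whether the intervals cover the spread between cells or libraries. Alternatives covered scaling, thinning to 2000 UMIs per cell, stricter cell filters, doublets, and clustering.

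All 30 members are accounted for; named with values in each library are Idi1, the 3 enzymes with most UMIs, Insig1, Srebf2, Apoe, Abca1, Abcg1 and Npc2, and in each comparison the 5 members with the largest ratios, plus up to 2 genes of a wider list. The members and lists were chosen with earlier results of these data known. Some genes of the wider lists are counted but not reported by name.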

Additional observations from a re-analysis of the deposited data

Results flagged for a closer look

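In 9 members the ratio of day 21 over day 7 lay on opposite sides of 1, beyond counting error, in muscle progenitor-like and lymphatic endothelial-like cells. Among 12685 genes measured in both classes, 3.69% were higher in muscle and lower in lymphatic cells, and 4.27% the reverse. Idi1, among the 9, was named by the choice of genes. The difference between the classes was not tested, since each rests on 1 library per day. The difference of the log2 ratios (muscle minus lymphatic) was 1.51 for Idi1, 1.36 for Msmo1, 1.24 for Fdps, 1.14 for Sqle, 0.90 for Hmgcs1, 0.79 for Insig1, 0.77 for Cyp51 and 0.66 for Fdft1. It was -1.29 for Abcg1, whose muscle ratio rests on 53 and 20 UMIs and whose lymphatic ratio came to -0.00538 when cells were thinned to one depth. The lymphatic class held its dividing cluster 19, while cluster 18, led by osteoclast and division genes, stood outside the muscle class.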

How the results depend on the processing

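Of the counts and medians of the 7 comparisons under each alternative, 139 stayed near the reported value and 11 moved. Under TMM the members' median was 0.21 for muscle progenitor-like cells, day 21 over day 7, and 0.99 for muscle over lymphatic cells. The number of members at least 2-fold apart was 1 in muscle with the mean over cells and 1 after thinning, and 1 in lymphatic cells after thinning. In fibroblast-like cells it was 7 after thinning, 4 at resolution 2.0, 1 with doublets kept and 1 when the pathway genes entered the clustering. The median of macrophages over fibroblasts was 0.28 at resolution 0.5 and 0.10 with cluster 13 alone, which was added after the data had been seen.

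For the named members (those with values in each library and the 5 largest ratios of each comparison), 1329 values stayed, 288 moved and 13 changed direction. After thinning these were Abcg1 in lymphatic cells (-0.00538), Insig1 (-0.15) and Mvd (0.81) in vascular cells, and Abca1 (0.088) and Abcg1 (0.22) in macrophages; Abca1 came to 0.22 with the mean over cells. At resolution 0.5 they were Abca1 (-0.35), Abcg1 (-0.43), Fdps (0.46) and Npc2 (-0.15) in fibroblasts, and Fdps (0.17) and Idi1 (0.39) for macrophages over fibroblasts; Idi1 came to 0.041 with cluster 13 alone. Apart from these, over all 30 members and 7 comparisons TMM changed the sign of 13 log2 ratios, 2 of them with an interval that excluded 1 (Mvk in muscle, 0.02, and Stard4 in muscle over lymphatic cells, 0.07). At resolution 0.5 the fibroblast and macrophage classes held partly different cells, and the causes were not tested. No paired analysis was possible because each group is 1 library with no replicate number. At day 0 and in the small classes, depth limits what can be seen.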
